A study of Mus musculus with 6 samples.

Results

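The 7 genes described here encode the cyclin-dependent kinase (CDK) inhibitors of the mouse: Cdkn1a, Cdkn1b, Cdkn1c, Cdkn2a, Cdkn2b, Cdkn2c and Cdkn2d. They were taken by name out of 21900 protein-coding genes, and every peak whose annotated nearest gene is one of them was collected from 6 chromatin immunoprecipitation (ChIP-seq) peak lists. Of 97783 peaks in all, 19 carried the name of one of these genes. The cells were primary neural stem cells grown from newborn mouse cortex in medium with EGF and bFGF. In the list titled iKO Seh1_flag the target was flag-tagged Seh1, a nucleoporin, and in the list titled Ctrl Seh1-1 it was Seh1 in Ctrl cells (called Seh1-flag and Seh1 Ctrl below). The other lists show Chd4, the motor subunit of the NuRD chromatin remodelling complex, in Ctrl, iKO, siSCR and siSeh1 cells. The labels give the genotype mutant for Chd4 iKO and wild type for the other libraries, and 4-OH-TAM was added to the medium of both libraries titled iKO. The labels name no deleted allele and no recombinase. From the series title, which speaks of deletion of Seh1, iKO was read as loss of Seh1, siSeh1 as its knockdown and siSCR as the knockdown control. The wild type label of Seh1-flag goes against its iKO title, and its header name begins with oe. Each group was 1 library, so no difference below has a replicate check and no p-value is given. The lists held 24961 peaks (Seh1-flag), 20833 (Seh1 Ctrl), 1154 (Chd4 Ctrl), 21294 (Chd4 iKO), 2606 (Chd4 siSCR) and 26935 (Chd4 siSeh1). Read depth is unknown, so an unlisted peak does not show absent binding. Peak lists measure no expression, so the cell type could not be checked against its markers. In Chd4 siSeh1, where 11.8% of all protein-coding genes had a promoter peak, 1 of 5 neural stem cell markers (Sox2) and 2 of 4 oligodendrocyte lineage markers (Olig2 and Sox10) had one. None of 4 neuron and 3 astrocyte markers did, and no marker had one in the other lists.

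CDK inhibitors hold cells in the G1 phase by blocking the kinases that phosphorylate the retinoblastoma protein, and so keep E2F factors from switching on genes of DNA replication. The Cip/Kip members, p21 (Cdkn1a), p27 (Cdkn1b) and p57 (Cdkn1c), bind complexes of CDK with cyclins D, E and A. The Ink4 members, p16 (Cdkn2a), p15 (Cdkn2b), p18 (Cdkn2c) and p19Ink4d (Cdkn2d), bind CDK4 and CDK6 alone. In the nervous system these proteins govern the quiescence of stem cells and the exit of progenitors from the cell cycle. p21, the gene of interest of the study, is the classical target of p53.

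The promoters that the results turn on are printed first, for Cdkn2d and Cdkn1b, which had Chd4 peaks at their start sites, and for Cdkn1a, which had none there. Each Cdkn1a and Cdkn1b run is the 250 bases before an annotated transcription start site (TSS), 5′ to 3′ on the strand of the gene. The RefSeq span of Cdkn2d reaches 212 bp beyond the start used by the peak annotation, so for that gene the 38 bases outside the span and 2 windows of 30 bases are shown. Sequences are from RefSeq on GRCm38.p6, the assembly called mm10 in the peak lists. Capitals mark the GC box, GGGCGG on either strand, and the CCAAT box, CCAAT on either strand. In the upstream Cdkn1a run they mark a p53 response element. Cdkn1a has 2 annotated starts.

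Cdkn2d, beyond the gene span (chr9:21291422-21291459, minus strand): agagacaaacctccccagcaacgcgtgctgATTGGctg

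Cdkn2d, with GC boxes (chr9:21291305-21291334, minus strand): gcgctctGGGCGGggcctgGGGCGGgcttg

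Cdkn2d, ending at the iKO summit (chr9:21291210-21291239, minus strand): gcaaggaaaggagggagggtgagtctgggg

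Cdkn1b (chr6:134920151-134920400, plus strand): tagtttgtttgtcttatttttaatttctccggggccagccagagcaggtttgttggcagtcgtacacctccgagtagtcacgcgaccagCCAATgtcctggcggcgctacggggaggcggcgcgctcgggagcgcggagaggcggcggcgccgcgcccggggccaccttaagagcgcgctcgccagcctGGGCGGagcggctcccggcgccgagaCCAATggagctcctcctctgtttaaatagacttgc

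Cdkn1a, upstream start (chr17:29090729-29090978, plus strand): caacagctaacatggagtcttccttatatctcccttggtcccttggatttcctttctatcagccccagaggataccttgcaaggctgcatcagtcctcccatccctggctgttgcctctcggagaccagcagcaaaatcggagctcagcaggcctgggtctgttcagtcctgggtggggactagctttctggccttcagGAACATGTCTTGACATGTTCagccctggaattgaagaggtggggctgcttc

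Cdkn1a, downstream start (chr17:29093519-29093768, plus strand): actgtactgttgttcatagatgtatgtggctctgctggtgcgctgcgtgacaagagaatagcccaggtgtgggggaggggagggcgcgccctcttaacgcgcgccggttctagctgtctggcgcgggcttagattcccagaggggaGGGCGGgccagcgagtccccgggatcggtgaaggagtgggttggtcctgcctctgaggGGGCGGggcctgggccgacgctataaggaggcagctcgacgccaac

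The last base of the last Cdkn2d run, 1 bp before the TSS, is the deposited Chd4 summit in iKO cells. The summits in siSCR and siSeh1 lay further out, 333 and 288 bp before the TSS and so beyond the bases printed, 121 and 76 bp outside the RefSeq span of the gene. The 250 bases before the Cdkn2d start hold 3 GC boxes, starting 118, 106 and 38 bp before the TSS, and 1 CCAAT box in reverse orientation at 220 bp, and the boxes at 118, 106 and 220 bp are printed. The Cdkn1b run holds 1 GC box at 61 bp and 2 CCAAT boxes at 161 and 35 bp. GC boxes occur in 42.6% and CCAAT boxes in 35.4% of 21263 protein-coding promoters cut to the same length, so these letters alone are common. The upstream Cdkn1a run holds 1 p53 response element, allowing at most 1 mismatch, that starts 51 bp before its TSS. That element was searched for after the sequence had been seen, and matches in 0.0376% of the promoters. The downstream Cdkn1a run holds 2 GC boxes. The E-box (CACGTG), the ETS core (CCGGAAG) and the TATA letters (TATAAA), each searched on both strands, were found in none of the 9 promoters of 6 of these genes that the table holds. Among all protein-coding promoters they occur in 6.63%, 8.98% and 11.6%. The match of letters is a description and says nothing of binding.

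Chd4 was listed at the promoters of 2 of the 7 inhibitor genes, Cdkn2d and Cdkn1b, counting a peak within 1 kb of a TSS as a promoter peak. Neither Seh1 list had a promoter peak at any of them. Promoter peaks numbered 2 of 7 genes in Chd4 siSeh1 (11.8% of all protein-coding genes had one), 1 in Chd4 iKO (5.18%), 1 in Chd4 siSCR (1.63%) and 0 in Chd4 Ctrl (0.0183%). In Seh1-flag 0 of 7 had one (1.33%), and in Seh1 Ctrl 0 of 7 (1.02%). With so few promoters in the Ctrl list, and in the Seh1 lists, a count of 0 among 7 genes is the usual outcome. For peaks anywhere that name the gene, the counts were 4 of 7 genes in Seh1-flag (38.9% of all protein-coding genes), 2 in Seh1 Ctrl (34.1%) and 1 in Chd4 Ctrl (2.67%). They were 3 in Chd4 iKO (36.8%), 2 in Chd4 siSCR (7.47%) and 4 in Chd4 siSeh1 (46.4%). Each of the 7 genes was named in at least 1 list, as were 72.3% of all protein-coding genes, while 27.7% were named in none. A promoter peak in at least 1 list was found for 2 of the 7 genes (16.1% of all) and in no list for 5 (83.9%).

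The members differed in where their peaks lay. Of the 19 peaks, 4 were at promoters, 11 were annotated as intergenic and 4 as intronic, and 9 lay in repeats. The 3 members with peaks nearest to a start were Cdkn2d, Cdkn1b and Cdkn1c, and all of those peaks were Chd4 peaks. Cdkn1a had its main peaks beyond its 3′ end. Cdkn2a, Cdkn2b and Cdkn2c had peaks only outside the gene and its promoter window, most of them in repeats. The median distance from the 7 gene spans to the nearest peak was 3.13 kb in Seh1-flag and 17.1 kb in Chd4 iKO, against 21.4 and 22.7 kb over all protein-coding genes. It was 21.2 kb in Chd4 siSeh1 against 10.9 kb over all genes, and 83.8 kb in Seh1 Ctrl against 31.5 kb. In the short lists it was 1027 kb in Chd4 Ctrl against 1502 kb, and 372 kb in Chd4 siSCR against 302.5 kb. Without peaks in repeats the order turned in Seh1-flag and Chd4 iKO: the 7 genes then had medians of 86.8 and 148 kb, against 65.6 and 44.1 kb over all genes. In both lists the lower median thus rests on peaks in repeats, but the short distances of several genes do not. In Seh1-flag, Cdkn1a, Cdkn1b and Cdkn2d kept theirs (2262, 0 and 2355 bp), while Cdkn2c moved from 3131 to 86815 bp. In Chd4 iKO, Cdkn1b and Cdkn2d kept theirs (3261 and 0 bp). There Cdkn1c moved from 17071 to 19941 bp and Cdkn2a from 10556 to 326681 bp. Without repeats the medians were 83.8 kb in Seh1 Ctrl (64.5 kb over all genes), 1027 kb in Chd4 Ctrl (3458 kb), 1331 kb in Chd4 siSCR (527 kb) and 78.0 kb in Chd4 siSeh1 (20.7 kb).

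**Figure D1:**
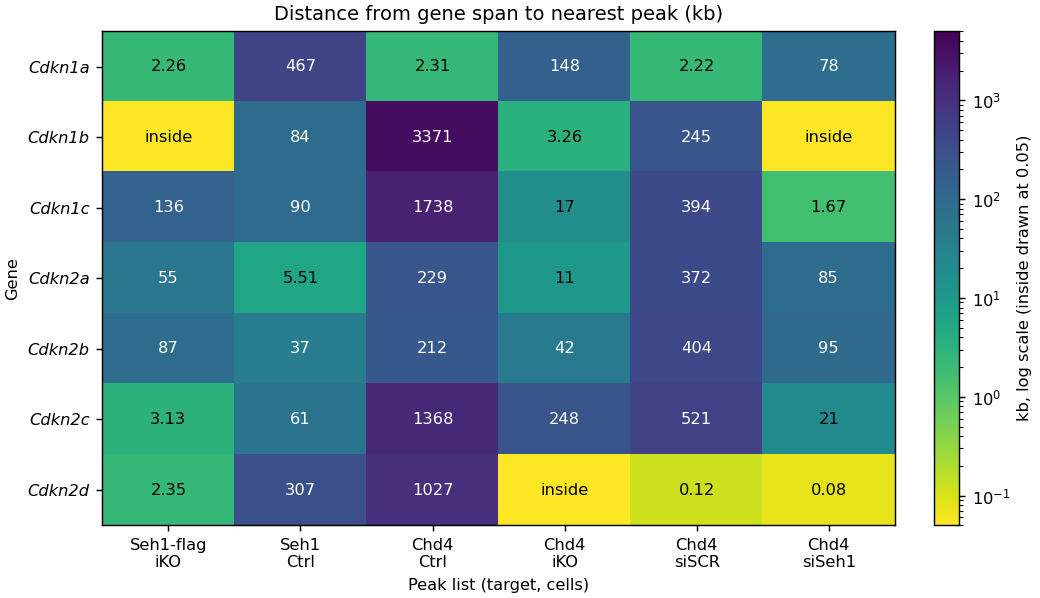
Heat map of the distance in kb from each inhibitor gene (rows) to the nearest peak in each list (columns), on a log colour scale, with 1 library per column. Cdkn2d lies within 0.121 kb of a peak in 3 Chd4 lists, and Cdkn1a lies 2.22 to 2.31 kb from one in Seh1-flag, Chd4 Ctrl and Chd4 siSCR.

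Cdkn2d encodes p19Ink4d, an inhibitor of CDK4 and CDK6 that is kept on in postmitotic neurons. It lies on chromosome 9, 21288459 to 21291421, on the minus strand, and was the only one of the 7 genes with a promoter peak in more than 1 list. In siSCR the Chd4 summit was at 21291542 with a deposited score of 5.08. In siSeh1 it was at 21291497, 45 bp from the siSCR summit, with a score of 12.1. In iKO it was at 21291210, 287 bp from the siSeh1 summit and 332 bp from the siSCR summit, with a score of 8.39. All 3 peaks were annotated to the promoter of the same transcript. Scores have no stated scale and are read only as ranks within a list.

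Ranked by score, the Cdkn2d peak stood in the first 1.39% of the siSeh1 list and the first 1.40% of the iKO list, and in the first 16.7% of the siSCR list. Promoter genes scored higher than the lists as a whole. Their median score was 5.23 in siSeh1, 4.78 in iKO and 5.15 in siSCR, against 3.35, 3.39 and 3.34 over all peaks. Each promoter gene was counted by its highest promoter peak but the lists by every peak, so the measures are not quite alike. Among genes with a promoter peak, Cdkn2d ranked 298th of 2592 in siSeh1, 163rd of 1134 in iKO and 193rd of 358 in siSCR. It thus stood near the middle of the siSCR promoters and in the upper part of the others. In Chd4 Ctrl the nearest peak was 1027 kb from the gene, but only 4 protein-coding genes had a promoter peak in that list at all. A promoter peak in siSCR, iKO and siSeh1 together was found at 222 protein-coding genes (1.01%), Cdkn2d among them. The nearest Seh1-flag peak, at 21286104, was 2355 bp from the 3′ end of Cdkn2d, in intron 3 of the neighbouring gene Kri1. The nearest Seh1 Ctrl peak was 307 kb away. Both protein-coding neighbours were close, Kri1 at 490 bp and Ap1m2 at 3194 bp, and no Chd4 list held a peak named for either.

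**Figure D2:**
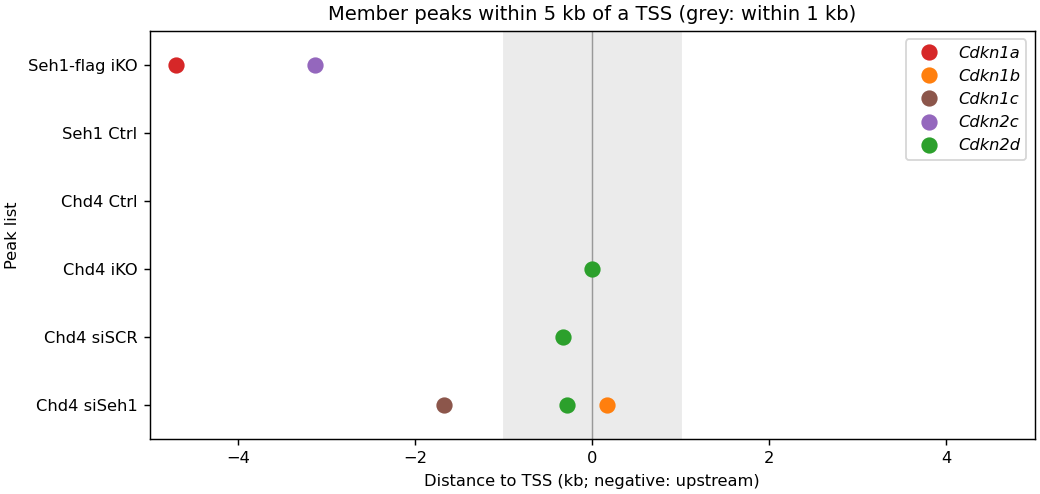
Peaks named for an inhibitor gene within 5 kb of its TSS, by list (rows) and signed distance in kb (negative is upstream), with the 1 kb promoter window in grey. Cdkn2d has a promoter peak in Chd4 iKO, siSCR and siSeh1 and Cdkn1b in siSeh1, while the Seh1-flag peaks lie 4707 bp (Cdkn1a) and 3131 bp (Cdkn2c) upstream.

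Cdkn1b encodes p27, which holds neural progenitors out of the cycle as they differentiate. It lies on chromosome 6, 134920401 to 134925525, on the plus strand. Its only promoter peak was Chd4 in siSeh1, at 134920569, 168 bp inside the gene in the 5′ UTR of exon 1. That peak had a low rank, in the first 69.2% of the list with a score of 3.05, and 2314th of 2592 among siSeh1 promoter genes. A Seh1-flag peak at 134925128 lay in the 3′ UTR of Cdkn1b, 397 bp before the end of the gene, with a score of 2.96 in the first 92.2% of its list. The deposited annotation assigned it to Lockd, a long noncoding RNA gene downstream of Cdkn1b, because it names the nearest TSS. In Chd4 iKO the nearest peak was at the promoter of Lockd itself, 3261 bp past the end of Cdkn1b, with a score of 4.53 in the first 17.4% of the list. Lockd was named after its values were seen. In Chd4 Ctrl, siSCR and Seh1 Ctrl the nearest peaks were 3371, 245 and 83.8 kb away.

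The iKO and siSeh1 peaks nearest to Cdkn1b thus stood at different places, 8217 bp apart, at the starts of Lockd and of Cdkn1b. Chd4 siSeh1 also had 1 peak inside Lockd, and 3 in all between the protein-coding neighbours of Cdkn1b. The protein-coding neighbour upstream, the receptor gene Gpr19, had 2 promoter peaks in siSeh1 and none in any other list.

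Cdkn1c encodes p57, an imprinted inhibitor expressed from the maternal allele. It lies on chromosome 7, 143458339 to 143461059, and had 1 peak, Chd4 in siSeh1 at 143462726. That peak was intergenic, 1676 bp upstream of a Cdkn1c start and so outside the promoter window, with a score of 4.58 in the first 18.4% of the list. In Chd4 iKO the nearest peak was 17.1 kb away, in a SINE repeat within an intron of the neighbour Slc22a18. No Seh1 peak lay within 50 kb: the nearest were 136 kb away in Seh1-flag and 90.2 kb in Seh1 Ctrl.

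Cdkn1a (chromosome 17, 29090979 to 29100722, plus strand) was unlike the other inhibitors. Its peaks came from Seh1-flag and from both control Chd4 lists, and none came from Chd4 iKO or Chd4 siSeh1. The gap of 13405 bp between the end of Cdkn1a and the start of Rab44, a Rab GTPase gene, held 13 peaks within 5496 bp, from 29102945 to 29108440. Of these, 4 were Seh1-flag peaks, 5 Chd4 Ctrl and 4 Chd4 siSCR, and Seh1 Ctrl, Chd4 iKO and Chd4 siSeh1 had 0. The annotation named Cdkn1a for 3 of them and Rab44 for 10.

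Several peaks of the 3 lists fell close together. Measured from the end of Cdkn1a, Seh1-flag had summits at 2262, 3712, 5977 and 6792 bp. Chd4 Ctrl had them at 2312, 3752, 6023, 6924 and 7718 bp, and Chd4 siSCR at 2223, 3739, 5608 and 6756 bp. At the spot nearest to Cdkn1a the 3 summits lay within 89 bp of each other. The siSCR summit at 5608 bp, in a satellite repeat, and the Ctrl summit at 7718 bp had no such close partner in the other lists. The 5 Ctrl peaks of this stretch ranged widely in rank, with 3 of them near the top of that list. The one at 6924 bp was 16th of 1154 with a score of 11.2, and those at 2312 and 3752 bp, with equal scores, were in the first 3.29%. The Ctrl peaks at 7718 and 6023 bp stood lower, in the first 22.9% and 79.4%. In siSCR the 4 peaks stood in the first 22.4%, 37.6%, 28.8% and 5.99% of the list in the order given. In Seh1-flag both peaks nearest to Cdkn1a tied at a score of 8.25 in the first 7.93%, and the others tied at 6.68 in the first 17.1%.

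**Figure D3:**
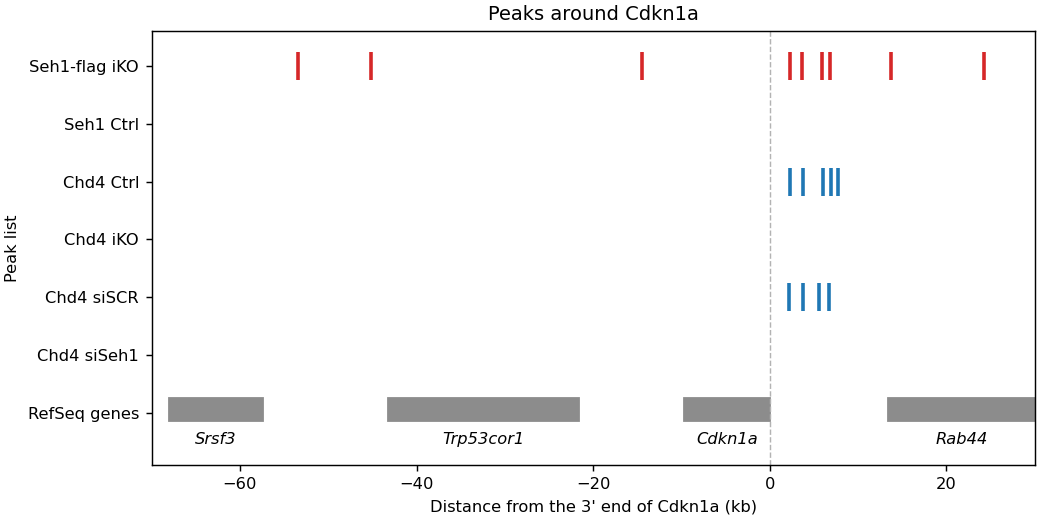
Map of peaks (ticks; red for Seh1, blue for Chd4) around Cdkn1a by list, with RefSeq genes in grey and the x axis in kb from the 3′ end of Cdkn1a. Ticks of Seh1-flag, Chd4 Ctrl and Chd4 siSCR stand together 2.22 to 7.72 kb past the gene, where the other 3 lists have none.

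Places where these 3 lists meet were counted across the genome. They are the lists with peaks past Cdkn1a, so the count favours that locus. Within 240 bp of a Seh1-flag peak, peaks of both Chd4 Ctrl and Chd4 siSCR were found at 31 Seh1-flag peaks in the genome, and 3 of these were between Cdkn1a and Rab44. Places under 10 kb apart formed 22 loci, 14 of them on autosomes, and the locus beside Cdkn1a was the only autosomal one with more than 1 place. Chromosome X had larger ones: 2 loci there held 4 places each, more than the 3 beside Cdkn1a. Of the 31 places, 13 were on chromosome X and 2 on unplaced sequence, in 1 locus. A Chd4 iKO peak was also within 240 bp at 1 of the 31 and a Chd4 siSeh1 peak at 3. Windows of 200 kb were counted at limits set by the window around Cdkn1a itself, which favours that locus too. Of 837 windows with any Chd4 Ctrl peak, 20 held at least 5, and of 2054 with any siSCR peak, 40 held at least 4. In Seh1-flag 48 of 10151 held at least 11.

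Seh1-flag had 1 further Cdkn1a peak, at 29086272, 4707 bp upstream of the first start in a run of A bases (simple repeat), in the first 48.6% of its list. No peak of any list lay in the 2 Cdkn1a promoter runs printed above, the p53 element included, or anywhere in Cdkn1a. Trp53cor1, the lincRNA-p21 gene upstream of Cdkn1a, likewise held 0 peaks in each of the 6 lists, and was looked at after the Cdkn1a values were seen. In Chd4 iKO the nearest peak to Cdkn1a was 148 kb away, where 92.6% of protein-coding genes had a nearer one. In siSeh1 it was 78.0 kb away (88.8% had a nearer one), and in Seh1 Ctrl 467 kb (98.4%). In the lists with peaks past the gene the distances were alike but the shares were not. In Chd4 Ctrl the nearest peak was 2312 bp away and 1.27% of genes had a nearer one, in Chd4 siSCR 2223 bp (5.02%) and in Seh1-flag 2262 bp (27.0%).

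Cdkn2a and Cdkn2b stand side by side on chromosome 4, at 89274473 to 89294619 and 89306289 to 89311032, 11670 bp apart. Cdkn2a encodes p16 and, from its upstream start, Arf, which stabilises p53. Both loci are silenced by Polycomb in stem cells, and the stretch past Cdkn2b up to Dmrta1, of 377166 bp, holds no other protein-coding gene. Their 8 peaks all lay outside both genes and their promoter windows. The nearest, Seh1 Ctrl at 89268781 to 89269142, was 5512 bp from Cdkn2a, and 26.3% of protein-coding genes had a nearer one in that list. The Chd4 iKO peak at 89263917 was 10556 bp from Cdkn2a (37.1% had a nearer one) and 5044 bp from the Seh1 Ctrl peak. The other Cdkn2a peaks were Chd4 iKO at 89229130 and Seh1-flag at 89219731, in LINE repeats as was the first iKO peak. The iKO peaks stood in the first 9.66% and 93.5% of their list and the Seh1-flag peak in the first 86.6%.

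The 4 Cdkn2b peaks came 1 each from Seh1-flag, Seh1 Ctrl, Chd4 iKO and Chd4 siSeh1. All lay in introns of Gm12610, a long noncoding RNA gene of 223 kb that starts beside Cdkn2a and whose synonym in the RefSeq table is ANRIL. Measured from the Cdkn2b start they were 181519, 65364, 109412 and 94549 bp upstream, so no 2 of them shared a place. The Seh1-flag and iKO peaks lay in LINE repeats and the Seh1 Ctrl peak in a SINE. Their ranks were in the first 63.2% (Seh1-flag), 38.6% (iKO) and 79.6% (siSeh1). Counting all peaks between Cdkn2a and Dmrta1, of which 1 in each of these lists was named for Cdkn2b and the rest for Dmrta1, the density was 5.08 Seh1-flag, 7.62 Seh1 Ctrl, 7.62 Chd4 iKO and 10.2 Chd4 siSeh1 peaks per Mb. Over the whole lists it was 9.65, 8.06, 8.23 and 10.4 peaks per Mb, so that in these 4 lists the stretch was not above the list average. In Chd4 Ctrl it held 1 peak, named for Dmrta1, or 2.54 per Mb against 0.442, and in Chd4 siSCR it held 0.

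Cdkn2c encodes p18, which restrains the division of progenitors. It lies on chromosome 4, 109660876 to 109666756, and had 2 Seh1-flag peaks and none in the other lists. One was at 109648559, 12317 bp past its 3′ end, in a SINE repeat within the noncoding gene Gm40227, with a score of 7.09 in the first 13.8%. The other was at 109669887, 3131 bp upstream, in a run of T bases, with a score of 5.33 in the first 37.7%. Both lay in repeats, as did 56.8% of all Seh1-flag peaks, of which simple repeats held 9.75% and SINEs 15.1%. For Chd4 the nearest peak was 21.2 kb away in siSeh1, 248 kb in iKO, 521 kb in siSCR and 1368 kb in Ctrl.

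**Figure D4:**
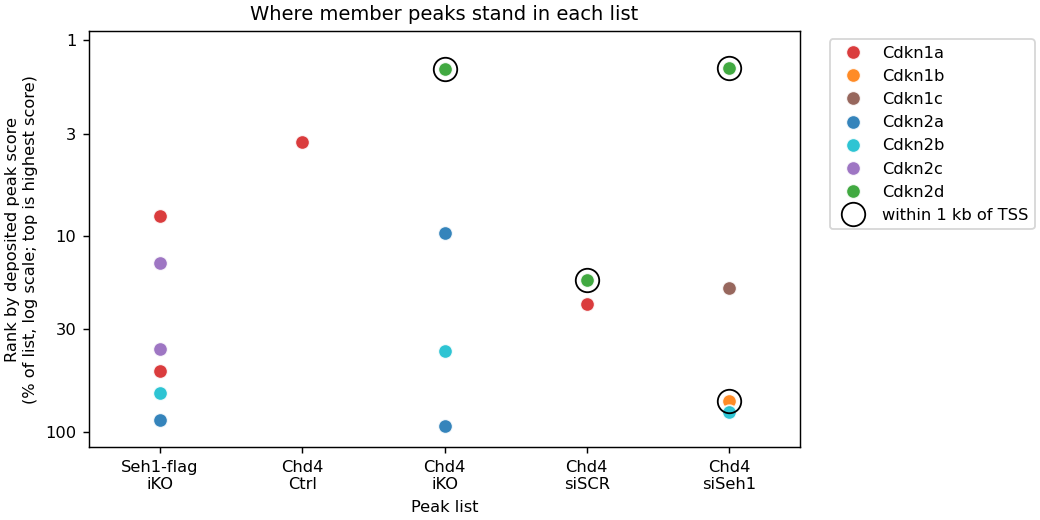
Rank by deposited peak score, as a percent of the list on a log scale with the highest scores at the top, of each peak named for an inhibitor gene in the 5 lists that have scores; rings mark promoter peaks. Cdkn2d stands in the first 1.39% of siSeh1 and 1.40% of iKO, and the Cdkn1a peak in the first 3.29% of Chd4 Ctrl.

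Chd4 in iKO cells was set beside Chd4 in Ctrl cells. Cdkn2a, Cdkn2b and Cdkn2d were named in iKO alone (34.8% of protein-coding genes were), Cdkn1a in Ctrl alone (0.635%) and 0 of 7 in both (2.04%). A promoter peak in iKO alone was found at Cdkn2d (5.18%), and 0 of 7 had one in Ctrl alone (0.0183%). In the silencing pair, Cdkn1b, Cdkn1c and Cdkn2b were named in siSeh1 alone (40.4%), Cdkn1a in siSCR alone (1.44%) and Cdkn2d in both (6.02%). For promoter peaks Cdkn1b was in siSeh1 alone (10.5%), Cdkn2d in both (1.34%) and 0 of 7 in siSCR alone (0.297%). Cdkn1a was thus the member named in the control list and not in the perturbed list of each pair, although each perturbed list was many times longer. The difference was not tested, as each side was 1 library. Among the Seh1 lists, Cdkn2a and Cdkn2b were named in both (20.5%), Cdkn1a and Cdkn2c in Seh1-flag alone (18.4%) and 0 of 7 in Seh1 Ctrl alone (13.7%). With 0 of 7 promoters in either list, the background was 1.31% in Seh1-flag alone, 1% in Seh1 Ctrl alone and 0.0228% in both. No Seh1-flag and Seh1 Ctrl peaks of these genes overlapped.

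CpG content of the inhibitor promoters with and without a Chd4 peak is described here, and its relation to the peaks was not tested. The observed over expected CpG ratio was 0.681 around the Cdkn2d start, from 250 bp before to 50 bp after it, and 1.04 around the Cdkn1b start, against a median of 0.567 over protein-coding promoters. Those of Cdkn2a (1.04 at its upstream start), Cdkn2b (0.722), Cdkn2c (0.823 at its upstream start) and the downstream start of Cdkn1a (0.786) were also above it. These had no Chd4 promoter peak. The downstream starts of Cdkn2a (0.442) and Cdkn2c (0.553) were below the median, likewise with no Chd4 promoter peak. The upstream start of Cdkn1a had a ratio of 0.0892. Among 8896 genes with a ratio of at least 0.6, promoter peaks were listed for 19.8% in siSeh1, 8.15% in iKO and 2.88% in siSCR. Among 8596 genes below it the shares were 4.58%, 2.66% and 0.547%. In Seh1-flag they were 1.41% at or above that ratio and 1.23% below it, in Seh1 Ctrl 0.731% and 1.28%, and in Chd4 Ctrl 0.0112% and 0.0233%, the last from 1 and 2 genes.

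Other genes of the same pathway, in lists written with earlier results known, also had Chd4 promoter peaks. Of 13 cyclins and kinases that the inhibitors bind, the count with one was 4 for siSeh1, 1 for iKO, and 0 for siSCR and for Ctrl. In siSeh1 these were the mitotic cyclins Ccnb1 and Ccnb2, the G1 cyclin Ccne1 and Cdk4, the kinase that p19Ink4d binds, whose peak lay 187 bp before its TSS with a score of 5.41. Ccne1 was the one in iKO. Ccnb1 also had a Seh1 Ctrl promoter peak, 595 bp inside the gene. Of 13 pocket proteins and E2F factors, siSeh1 had promoter peaks at 6, iKO at 2, siSCR at 2 and Ctrl at 0. E2f1 and E2f3, activators of the G1 to S transition, were in siSCR, iKO and siSeh1 as Cdkn2d was. The E2f1 summits lay 59, 96 and 83 bp before the TSS in that order. E2f6, E2f7, E2f8 and Tfdp2 were in siSeh1 alone. Rb1, the retinoblastoma gene, had none in any list.

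Of 27 regulators of the inhibitors, Chd4 was listed at the promoters of 11 under siSeh1, 7 under iKO, 3 under siSCR and 0 under Ctrl. No test was made of these lists, and the shares over all protein-coding genes are the 11.8%, 5.18%, 1.63% and 0.0183% given above. Ezh2, the Polycomb methyltransferase that silences Cdkn2a, had a peak in siSCR, iKO and siSeh1. Its peak stood in the first 5.56% of the siSCR list, 0.733% of iKO and 0.278% of siSeh1. Sp1, which binds GC boxes, was also in all 3. Its peak stood in the first 0.225% of iKO and 0.921% of siSeh1, but near the bottom of siSCR (first 98.4%). Cks1b, a cofactor of p27 degradation, and Hes1 were in iKO and siSeh1. Foxo1, an activator of p27, and Mdm2, the ubiquitin ligase of p53, were in siSeh1 alone, 87 and 84 bp before their TSS. Trp53, the gene of p53, had no promoter peak in any list. In Seh1-flag 1 of the 27 had one (Suz12, 973 bp before its TSS, in the first 54.7% of the list), and in Seh1 Ctrl 0. Suz12 was also among the Chd4 promoters of iKO and siSeh1. Of 12 protein-coding neighbours of the inhibitors, Gpr19 and Mtap had a Chd4 promoter peak, both in siSeh1, and Rab44 a Seh1-flag one. Srsf3, Apold1, Kcnq1, Slc22a18, Dmrta1, Kri1, Faf1 and 4930522H14Rik had peaks in at least 1 list but none at the promoter, and Ap1m2 had no peak in any list.

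Genes named in the same set of lists were counted for each inhibitor. Cdkn1a shared its set (Seh1-flag, Chd4 Ctrl and Chd4 siSCR) with 4 other protein-coding genes (0.0183%). Of these, Hsf3, Mrps6 and Rasl10b were nearest in number of peaks. Its neighbour Rab44 was also among them. Of the 13 peaks between Cdkn1a and Rab44, 10 were named for Rab44, so that match comes from the same group of peaks. Cdkn2d shared its set (Chd4 iKO, siSCR and siSeh1) with 165 genes (0.753%), and Cdkn2a its set with 392 (1.79%). Cdkn1b and Cdkn1c, named in siSeh1 alone, had 1950 genes alike (8.90%). Cdkn2b had 1800 (8.22%) and Cdkn2c 1402 (6.40%). The likeness rests on presence in 6 lists of very unequal length and is a description only.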

How the data were processed

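ChIP-seq peak lists of 6 libraries, 1 per group, were analysed. Per the file headers, the deposited lists were annotated on mm10 with HOMER, and the header names of the lists hold the word input. The submitters' processing notes name Bowtie2 and HOMER, with no version, and the human builds hg18 and hg38. Peak caller and threshold: not given in the sources used here. Deposited peak scores have no stated scale and ranked peaks within a list only, ties taking the lowest rank. All Seh1 Ctrl scores are 0. That list gives intervals, of which midpoints were used, and the others summits. A promoter peak lay within 1000 bp of the nearest TSS by the distance column (bp) that the authors deposited. Genes were matched by Entrez ID to the RefSeq table of GRCm38.p6 (97213 of 97341 peaks with an ID), and 6 of 7 members had promoter sequences. All 7 members and each protein-coding neighbour are named, and up to 6 genes per pathway list with a promoter peak, by alphabet, beside others chosen after their values were seen. Of the regulator list, 1 gene is counted but not reported by name here. Members and lists were chosen with earlier results of these data known. Python 3.11.15 (pandas 2.3.3, numpy 2.4.6) gave all distances, which were tested on simulated data against bedtools 2.31.1. Alternatives changed gene assignment, score limit, list length, repeats and promoter window.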

Additional observations from a re-analysis of the deposited data

How the results depend on the processing

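No paired analysis was possible because each group held 1 library, and leaving out a replicate could not be run for the same reason. Without peaks in repeats, the number of inhibitor genes named fell to 1 in Seh1-flag, 1 in Seh1 Ctrl and 1 in Chd4 iKO. With the upper 50% of each list by score it was 2 in Seh1-flag and 2 in Chd4 siSeh1, and 1 gene had a promoter peak in Chd4 siSeh1. With each list cut to 1154 peaks, 0 genes were named in Seh1-flag, 1 in Chd4 iKO and 1 in Chd4 siSeh1, where 1 had a promoter peak. That gene was Cdkn2d in both Chd4 lists. A promoter window of 100 bp left 0 genes in Chd4 siSCR and 0 in Chd4 siSeh1, and a window of 5000 bp gave 2 genes in Seh1-flag. Other counts of named or promoter genes stayed within 1.5 times. Shares over all protein-coding genes are not given for these settings. A shorter list names fewer genes of any kind, and whether the lower counts are particular to these members was not tested. The distance to the nearest peak moved by over 1.5 times in 15 of 42 cases without repeats (42 is 7 genes in 6 lists). Assigning peaks to the nearest gene span, chosen after seeing the data, gave 3 Chd4 Ctrl and 4 siSCR peaks to these genes in place of 1 and 2. Sharing within 100 or 1000 bp, also chosen later, gave 22 and 52 Seh1-flag peaks near Chd4 Ctrl and siSCR. The Seh1 Ctrl list has no scores, so limits on score and length could not be run there.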
